A study of Mus musculus with 4 samples.

Results

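The genes described are 10 that help proteins fold in the endoplasmic reticulum or that are targets of the transcription factor XBP1, together with Xbp1 itself. They are Hspa5, Hsp90b1, Hyou1, Pdia4, Dnajb9, Sdf2l1, Creld2, Manf, Herpud1 and Xbp1. They were chosen by name, with earlier results of these data known. Their probes are those whose accession maps to these genes, and all 10 were found among 20886 genes named on the array. In all, 11 probes read them, with 2 probes for Dnajb9 and 1 for each of the others. Every member was well above background on all 4 arrays by the scanner's own flag.

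RNA came from the livers of male mice that were either wild type or catalase knockout, and catalase removes hydrogen peroxide, chiefly in peroxisomes. Each genotype was given a normal diet, with 18% of calories from fat, or a high-fat diet, with 60.3% of calories from fat, for 11 weeks, between the ages of 29 and 40 weeks. This gives 4 groups with 1 Agilent 1-colour array each, and the sources used here do not state the strain, how the catalase allele was made or whether a sample was 1 animal or a pool. No difference therefore has a replicate check or a p-value, and the number of arrays limits the precision.

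Proteins destined for secretion fold in the endoplasmic reticulum, and the hepatocyte, which secretes most plasma proteins, is rich in this organelle. When unfolded proteins accumulate there, the sensors IRE1, PERK and ATF6 signal to the nucleus in what is called the unfolded protein response. IRE1 splices Xbp1 mRNA so that it encodes an active transcription factor, ATF6 is cut to release another, and both raise the transcription of chaperones, folding enzymes and degradation factors.

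All signals are given as a scaled log2 signal, which is log2 of the scanner's processed signal minus the 75th percentile of its array, so that 0 is the level of the 75th percentile. Sets of 4 values give the wild type first, on normal then high-fat diet, and then the knockout, again on normal then high-fat diet. Cat, the gene of catalase, checks the labels: its brighter probe read 4.89, 4.75, 1.13 and 0.95, a log2 difference in the knockout of -3.76 on normal diet and -3.81 on high-fat diet. The sources used here do not say whether the Cat probes lie in the deleted part. The 75th percentile itself lay between 1002 and 1152 in signal units, and between 23760 and 25184 of 39429 probes per array were well above background. Of 14 hepatocyte marker genes on the array, 14 were well above background on every array, so the tissue label was met.

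The promoters of the members are shown for the letters that the factors of the unfolded protein response are known to bind. The ER stress response element (ERSE), bound by ATF6 and XBP1 together with the factor NF-Y, was searched as CCAAT, any 9 bases, then CCACG. A related element, ERSE-II, was searched as ATTGG, any 1 base, then CCACG, and the core of the UPR element, bound by XBP1 and ATF6, as TGACGTG followed by G or A. Each was sought on both strands of RefSeq promoters of GRCm38.p6 that run from 250 bases before to 50 bases after the gene's start, and 8 of the 10 members, all but Hyou1 and Manf, were matched in that table. The 4 members with an ERSE or ERSE-II are printed below from 220 to 21 bases before the start, 5′ to 3′ on the gene's own strand, with the ERSE, ERSE-II and UPR element core in capitals.
Hspa5: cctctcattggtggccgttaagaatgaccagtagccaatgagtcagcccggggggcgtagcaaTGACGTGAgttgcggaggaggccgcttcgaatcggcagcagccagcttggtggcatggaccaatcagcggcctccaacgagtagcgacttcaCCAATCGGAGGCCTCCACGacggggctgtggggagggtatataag
Hsp90b1: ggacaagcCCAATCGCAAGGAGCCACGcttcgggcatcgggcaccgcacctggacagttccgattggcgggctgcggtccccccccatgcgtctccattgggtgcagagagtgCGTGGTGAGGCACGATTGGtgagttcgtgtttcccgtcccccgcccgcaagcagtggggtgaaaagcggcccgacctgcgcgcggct
Creld2: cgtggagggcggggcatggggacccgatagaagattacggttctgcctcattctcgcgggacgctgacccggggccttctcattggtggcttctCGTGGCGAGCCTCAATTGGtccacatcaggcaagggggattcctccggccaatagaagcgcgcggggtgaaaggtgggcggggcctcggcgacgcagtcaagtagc
Herpud1: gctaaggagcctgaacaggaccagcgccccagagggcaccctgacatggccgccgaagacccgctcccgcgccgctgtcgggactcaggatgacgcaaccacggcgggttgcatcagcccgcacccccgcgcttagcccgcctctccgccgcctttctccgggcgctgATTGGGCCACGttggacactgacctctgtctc
These windows are chr2:34771870-34772069 (plus strand) for Hspa5, chr10:86705465-86705664 (minus strand) for Hsp90b1, chr15:88819426-88819625 (plus strand) for Creld2 and chr8:94386209-94386408 (plus strand) for Herpud1.

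An ERSE was present in 3 of the 8 member promoters and in 39 of all 32851 promoters in the table, or 0.119%. In Hspa5 it lay on the gene's own strand at positions -65 to -47 from the start. Hsp90b1 held 2, at -212 to -194 on its own strand and at -107 to -89 on the opposite strand. That of Creld2 lay on the opposite strand at -126 to -108, so its letters read in reverse complement in the window above. Herpud1 held the ERSE-II, at -52 to -42, which 12 promoters in all (0.0365%) contained, and the opening letters of an ERSE-II are CCAAT on the opposite strand. Hspa5 was also the member with a UPR element core, at -157 to -150, a match found in 1.12% of promoters.

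The remaining searches gave other shares. CCAAT alone was found in 7 of the 8 member promoters, all but Xbp1, and in 37.4% of all promoters. The cyclic AMP response element core (TGACG followed by TCA, 1.79% of promoters) and the ATF4 composite element (TGATG, any 1 base, AAT, 0.965%) were in 0 of the 8. An ERSE with 1 letter of CCACG changed, a search added after the data were seen, was in Hsp90b1, Pdia4 and Herpud1 and in 0.892% of promoters. In Pdia4, which had no exact ERSE, this match lay at -108 to -90. A match describes letters in these windows and was not measured as a bound site.

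**Figure D1:**
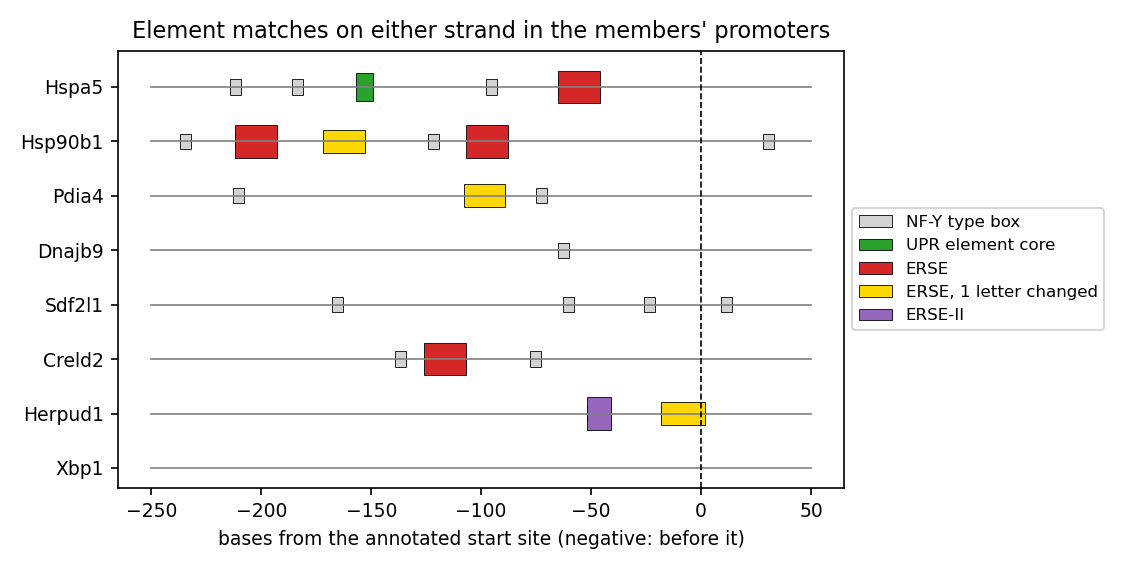
Position of each match on either strand in the promoters of the 8 matched members, in bases from the annotated start site (horizontal axis), with 1 row per gene and a colour per element; the NF-Y type box is CCAAT, not drawn where a larger element covers it. Hspa5, Hsp90b1 and Creld2 have an ERSE, Herpud1 has the ERSE-II, and Xbp1 has no match.

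All 10 members were lower in the knockout than in the wild type on both diets. For each of the 10, both knockout arrays lay below both wild-type arrays, an order found for 17.9% of the 13551 genes well above background on all 4 arrays. Since the members were chosen with earlier results of these data known, the shares of all genes beside them are a description and not a test. Averaged over the 2 diets, the log2 difference of knockout minus wild type ran from -1.11 for Creld2 to -0.29 for Pdia4, with a median of -0.65, equal to a change of -36.2%, beside a median of -0.02 over all these genes. The gap between the lowest wild-type array and the highest knockout array was 0.15 to 0.86 on the log2 scale, with a median of 0.50, and for 8 of the members it exceeded the scanner's own error of the difference. That error, the value after each ± below, is 0.20 for a typical pair of single spots and covers the measurement of the spot, not the spread between animals. In whole liver RNA, fewer cells of a type and less RNA per cell cannot be told apart.

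A gene is said to have fallen or risen when it differed by 1.5-fold or more, a rule of size. On normal diet 5 of the 10 members fell in the knockout, beside 6.65% of 14702 genes measured in that comparison, and 1 of them, Creld2, fell by 2-fold or more, beside 2.5%. On high-fat diet 6 of the 10 fell, beside 4.36% of 14844 genes, and 2 of them, Hspa5 and Creld2, fell by 2-fold or more, beside 1.59%. Hspa5, Dnajb9, Sdf2l1, Creld2 and Manf fell on both diets, which 0.886% of genes did. The median log2 difference was -0.62 on normal diet and -0.70 on high-fat diet, beside -0.01 and -0.04 over all genes, of which the lowest 10% lay under -0.39 and -0.37. Scaling by the array median instead left 3 members past 1.5-fold on normal diet, Dnajb9, Sdf2l1 and Creld2, and all 10 stayed lower.

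**Figure D2:**
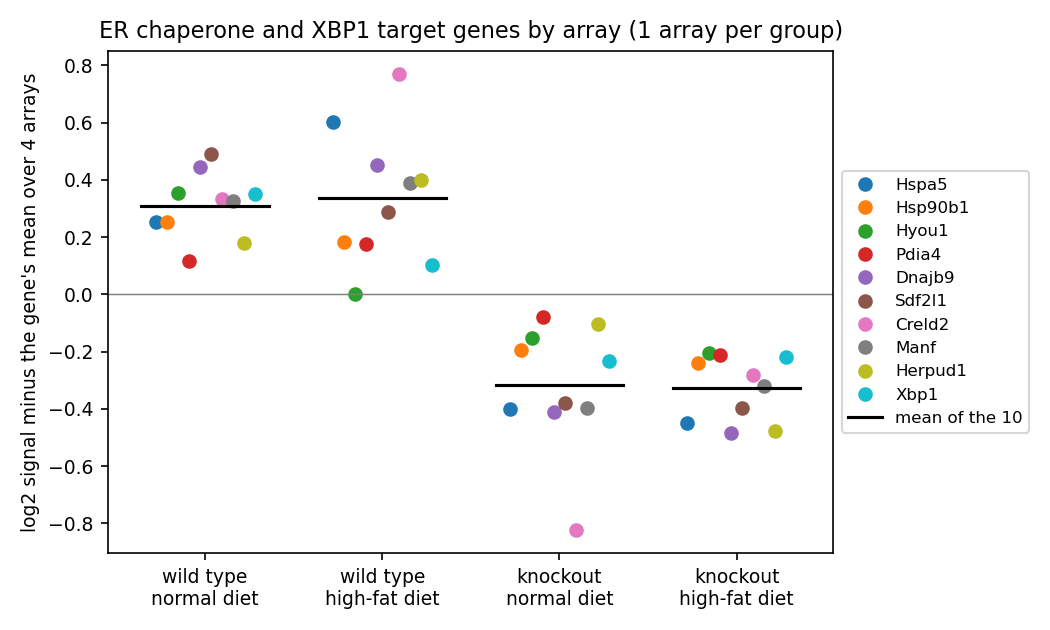
Log2 signal of each member minus that member's mean over the 4 arrays (vertical axis), by array; each point is 1 gene on 1 array, colours name the gene, and the bars are the mean of the 10 members, 0.31, 0.34, -0.32 and -0.33. Every knockout point lies below 0, and every wild-type point lies above the knockout points of the same gene.

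Hspa5 encodes BiP, the abundant Hsp70-type chaperone of the endoplasmic reticulum, which also holds the stress sensors inactive. It read 6.35, 6.70, 5.70 and 5.65. Both knockout arrays were thus alike and lay below both wild-type arrays, and the wild-type array on high-fat diet was the highest. Hspa5 fell in the knockout by 0.65 ± 0.20 on the log2 scale on normal diet, or 1.57-fold, and by 1.05 ± 0.20 on high-fat diet, or 2.07-fold. It is the member with both an ERSE and a UPR element core in the promoter shown above.

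Dnajb9 and Sdf2l1 encode cofactors of BiP. Dnajb9 (ERdj4), a J-domain protein that stimulates the ATPase of BiP and helps to keep IRE1 inactive, read 2.67, 2.67, 1.81 and 1.74. The groups did not overlap, and its gap between genotypes of 0.86 was the widest among the members. It fell by 0.86 ± 0.20 on normal diet (1.81-fold) and by 0.93 ± 0.20 on high-fat diet (1.91-fold). Its dimmer probe read -1.15, -1.20, -2.03 and -2.01, so both probes gave the same order of genotypes, with differences of -0.88 ± 0.21 and -0.81 ± 0.21. Sdf2l1, which works with J-domain proteins of the endoplasmic reticulum in the BiP cycle, read 2.05, 1.85, 1.18 and 1.16. Both knockout arrays were again nearly equal and below both wild-type arrays. Sdf2l1 fell by 0.87 ± 0.20 on normal diet (1.83-fold) and by 0.69 ± 0.20 on high-fat diet (1.61-fold).

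Hyou1 encodes the large Hsp110-type protein GRP170, which exchanges the nucleotide of BiP. It read -1.18, -1.54, -1.69 and -1.74. This was an order of genotypes with the narrowest gap among the members, 0.15, which is less than the scanner error of 0.21 for 2 arrays. The knockout differed by -0.51 ± 0.21 on normal diet and by -0.21 ± 0.21 on high-fat diet, so Hyou1 passed 1.5-fold on neither diet.

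Hsp90b1 and Pdia4 stand for the Hsp90 and disulfide branches of folding. Hsp90b1 encodes GRP94, the Hsp90-type chaperone of the organelle, and read 6.34, 6.27, 5.89 and 5.85. The genotypes were separated on both diets by nearly the same amount, -0.45 ± 0.20 on normal diet (1.36-fold) and -0.42 ± 0.20 on high-fat diet (1.34-fold), short of 1.5-fold. Pdia4 encodes ERp72, a protein disulfide isomerase, and read 1.97, 2.02, 1.77 and 1.64. It had the smallest mean difference of the members: -0.20 ± 0.20 on normal diet, within the scanner error, and -0.39 ± 0.20 on high-fat diet (1.31-fold). Hsp90b1 is the member with 2 ERSE matches in the promoter shown above.

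Creld2 and Manf encode proteins that are retained in the organelle or secreted under stress, and Manf protein binds BiP. Creld2 read 4.92, 5.35, 3.76 and 4.30. It is the best measured member, since its probe was printed in 10 spots per array, of which 10, 10, 9 and 9 were kept, with a spot SD of 0.06, 0.06, 0.04 and 0.05. The spots ran from 4.85 to 5.04, from 5.28 to 5.46, from 3.71 to 3.84 and from 4.24 to 4.39, so no spot of one array overlapped those of another. Creld2 fell in the knockout by 1.16 ± 0.07 on normal diet (2.23-fold) and by 1.05 ± 0.07 on high-fat diet (2.07-fold). The spots of an array share 1 labelled RNA, so their agreement measures the array and not the animals. Manf read 3.58, 3.64, 2.85 and 2.93. Manf fell by nearly equal amounts, 0.72 ± 0.20 on normal diet (1.65-fold) and 0.71 ± 0.20 on high-fat diet (1.64-fold), and its arrays did not overlap between genotypes.

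**Figure D3:**
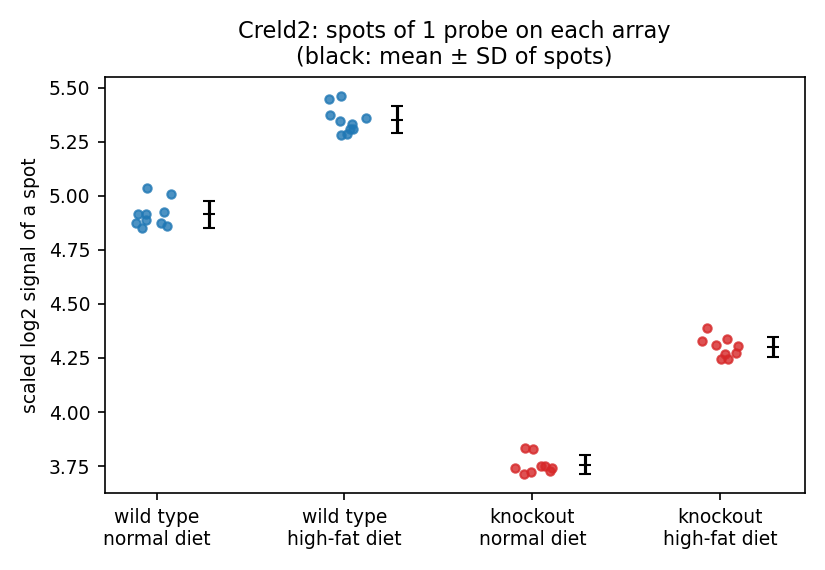
Scaled log2 signal of every kept Creld2 spot on each of the 4 arrays (10, 10, 9 and 9 spots), with the mean and SD of the spots beside them in black. The spot ranges, 4.85 to 5.04, 5.28 to 5.46, 3.71 to 3.84 and 4.24 to 4.39, do not overlap.

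Herpud1 encodes a membrane protein that organises the complex for degradation of misfolded proteins. It read 6.48, 6.70, 6.19 and 5.82. The knockout array on high-fat diet was the lowest and the wild-type array on the same diet the highest. Herpud1 differed by -0.28 ± 0.20 on normal diet (1.22-fold) and fell by 0.88 ± 0.20 on high-fat diet (1.84-fold). Xbp1 itself read 6.10, 5.85, 5.51 and 5.53. The genotypes did not overlap, and the wild-type array on normal diet was the highest. The knockout differed by -0.58 ± 0.20 on normal diet, which at 1.499-fold lay just short of the size rule, and by -0.32 ± 0.20 on high-fat diet. The sources used here do not say which of the unspliced and spliced forms the Xbp1 probe reads.

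**Figure D4:**
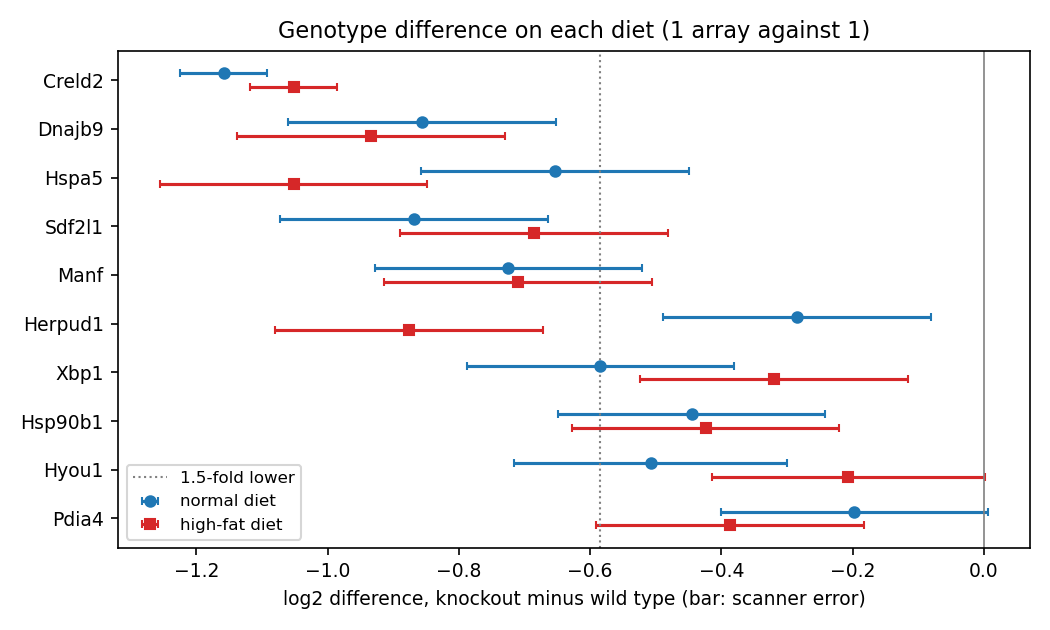
Log2 difference of knockout minus wild type (horizontal axis) for each member on normal diet (circles) and high-fat diet (squares), with the scanner's error as bars and the 1.5-fold lower line dotted. All points lie below 0, from -1.16 (Creld2, normal diet) to -0.20 (Pdia4, normal diet).

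The diet differences of the members lay on both sides of 0, and none reached 1.5-fold. In wild type, 0 of the 10 fell by 1.5-fold on high-fat diet, beside 6.51% of 14636 genes, and 0 rose, beside 4.45%. In the knockout 0 fell, beside 5.68% of 14905 genes, and 0 rose, beside 9.52%. The median log2 difference of high-fat minus normal diet was 0.03 in wild type and -0.05 in the knockout. Creld2 had the highest value in both genotypes, 0.44 ± 0.06 in wild type and 0.54 ± 0.07 in the knockout. The lowest values were -0.35 ± 0.21 for Hyou1 in wild type and -0.37 ± 0.20 for Herpud1 in the knockout. For Hspa5 the diet difference was 0.35 ± 0.20 in wild type but -0.05 ± 0.20 in the knockout, and the latter turned positive under quantile and cyclic loess normalization. Quantile and cyclic loess normalization placed Creld2 in the knockout past 1.5-fold, at 0.73 under both.

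The diet difference in the knockout minus that in wild type is the same quantity as the genotype difference on high-fat diet minus that on normal diet. Its median over the members was 0.02, with a range from -0.59 for Herpud1 to 0.30 for Hyou1, and the middle 80% of all genes ran from -0.42 to 0.56. Herpud1, at -0.59 with a scanner error of 0.29 over 4 arrays, was the 1 member past 2 such errors. Hspa5 followed at -0.40. For Creld2 this value was 0.11, and for Manf and Hsp90b1 it was 0.01 and 0.02. No test of this difference is possible with 1 array per group.

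The other genes of the pathway showed a smaller shift than the members. Among 44 measured genes of folding, disulfide and glycan control, 17 had both knockout arrays below both wild-type arrays, beside 17.9% of all genes. Their median difference averaged over diets was -0.18. Median scaling left 11 of them in that order, beside 10.4% of all genes, and quantile normalization gave a median of -0.098. Of the 45 that could be read in each genotype comparison, 3 fell and 1 rose on normal diet, beside 6.65% and 3.89% of all genes. On high-fat diet 2 fell and 1 rose, beside 4.36% and 7.34%. Pdia3, a disulfide isomerase for glycoproteins, differed by -0.56 on normal diet and fell by 0.89 on high-fat diet, and Txndc11 fell by 0.77 and 0.61. Nucb2 and Fkbp11 fell by 1.41 and 1.14 on normal diet but read 0.22 and 0.29 on high-fat diet. Tor3a rose by 0.87 on high-fat diet. The lectin chaperone Calr differed by -0.42 and -0.34. Sdf2 and Creld1, paralogs of Sdf2l1 and Creld2, differed by 0.04 and 0.07 on normal diet and by 0.01 each on high-fat diet.

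Of 31 genes of ER-associated degradation, which returns misfolded proteins to the cytosol, 8 had both knockout arrays below both wild-type arrays, beside 17.9% of all genes. Their median was -0.12. Median scaling left 6 in that order, beside 10.4% of all genes, with a median of -0.08. Quantile normalization gave a median of -0.04. On normal diet 1 fell, beside 6.65% of all genes, and on high-fat diet 3 fell, beside 4.36%. Derl3, a channel component, fell by 0.78 and 1.18, and with the high-fat diet it rose by 1.35 in wild-type liver and by 0.94 in knockout liver. Syvn1, the ubiquitin ligase of this pathway, differed by -0.55 and fell by 0.84, and its partner Sel1l differed by -0.22 and fell by 0.64. Among 65 genes of the translocon, signal sequence handling and vesicle coats, 24 had the same order, and the median was -0.10. On either diet 0 fell, beside 6.65% and 4.36% of all genes. Kdelr3, above background on 2 arrays, and Sec61a2 rose on high-fat diet by 0.73 and 0.65, where 7.34% of all genes rose. The 24 became 15 under median scaling and 13 under quantile and cyclic loess normalization, with medians between -0.06 and -0.04. The share of all genes in that order was then 10.4%, 14.6% and 15.7%. Ostc and Tram2 had the largest differences on normal diet, -0.52 and 0.51.

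Among the sensors and the genes of the PERK arm the share with this order was near the 17.9% of all genes. Of 16 sensors and transducers, 3 had both knockout arrays below both wild-type arrays, with a median of -0.02. Ern1, which encodes IRE1, differed by -0.10 and 0.16 and Atf6 by 0.03 and -0.33, while Eif2ak3, which encodes PERK, fell by 0.83 on normal diet and differed by -0.47 on high-fat diet. Creb3l2, a related membrane-bound transcription factor, fell by 1.52 and 0.90, and Ern2 differed by -0.49 on high-fat diet. Of 16 genes of the PERK, ATF4 and CHOP arm, 3 had that order. Their median was -0.23 on normal diet, with 12 negative, 3 fallen and 0 risen. It was 0.06 on high-fat diet, with 7 negative, 1 fallen and 1 risen, and -0.07 averaged over the diets. Of all genes, 6.65% fell and 3.89% rose on normal diet, and 4.36% fell and 7.34% rose on high-fat diet. Ddit3, which encodes CHOP, fell by 0.93 and 0.96. Asns and Atf3 fell on normal diet by 1.22 and 1.40, Nupr1 rose on high-fat diet by 0.72, and Atf4 itself differed by -0.29 and 0.05.

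**Figure D5:**
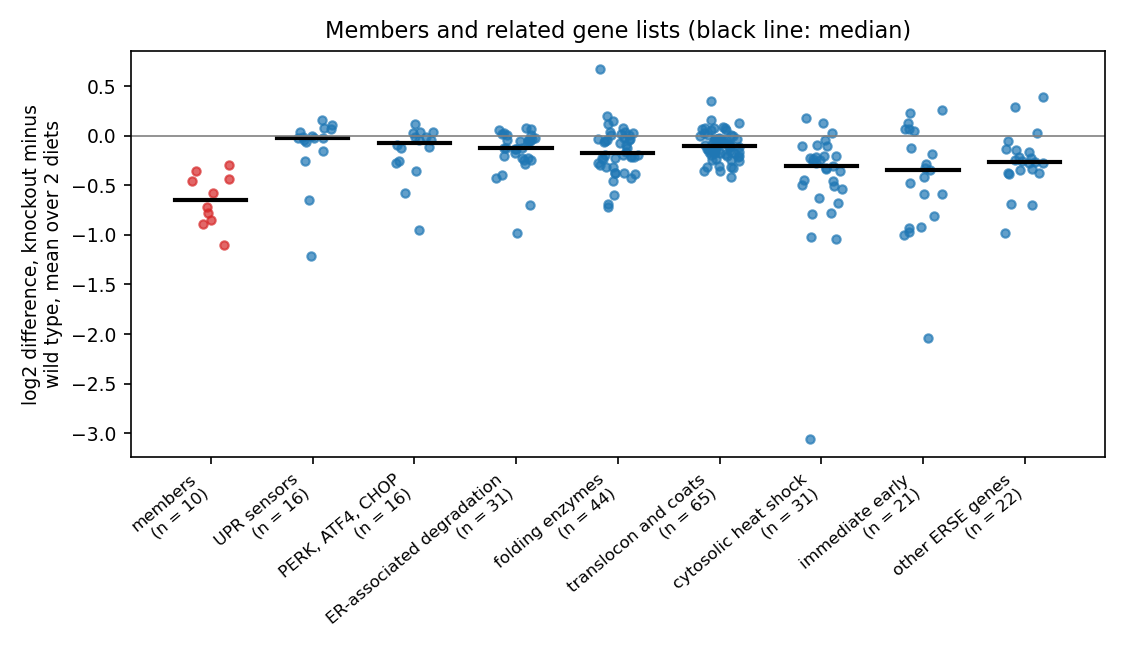
Log2 difference of knockout minus wild type, averaged over the 2 diets (vertical axis), for every gene well above background on all 4 arrays in the members and in each list (1 column per list, points are genes), with the list's median as a black bar and a grey line at 0. The members' median is -0.65, those of the other lists of the pathway lie between -0.18 and -0.02, and those of the heat shock, immediate early and other ERSE genes are -0.30, -0.35 and -0.26.

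Other genes with an ERSE or ERSE-II give a group that was found by sequence and then filtered for signal above background. Of 45 such genes, 30 were on the array and 22 were well above background on all 4 arrays. In 15 of the 22 both knockout arrays lay below both wild-type arrays and in 0 above, beside 17.9% and 13.8% of all genes. The median over the diets was -0.26. The 15 were Alg12, Calr, Canx, Dnajb11, Dnajc3, Ero1b, Hnrnpa3, Krtcap2, Lrif1, Nucb1, Pan2, Pdia6, Rbm39, Syvn1 and Zfp57. Of the 22, 10 also belong to the lists of endoplasmic reticulum genes above, with 9 in that order and a median of -0.33, and the other 12 had 6 in that order and a median of -0.21. Median scaling left 11 of the 22 in that order, beside 10.4% of all genes. Among the 22, the genes past 2-fold in a genotype comparison were Xlr3b, at -2.06 on normal diet but 0.68 on high-fat diet, and Derl3, with the values given above.

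Some heat shock and immediate early genes were also lower in the knockout, and their part in the result was not tested. Of 31 cytosolic and mitochondrial heat shock genes, 22 had both knockout arrays below both wild-type arrays, beside 17.9% of all genes. Their median was -0.30. Of the 32 that could be read in each comparison, 10 fell and 0 rose on normal diet, beside 6.65% and 3.89% of all genes. On high-fat diet 5 fell, beside 4.36%, and 1 rose, beside 7.34%. The latter was Hspa1l, above background on 2 arrays, which rose at least 5.64-fold. Hspa1a, the inducible cytosolic Hsp70, fell by 3.27 and 2.84, Dnajb1 by 1.26 and 0.82 and Hsph1 by 0.98 and 1.07, and Dnaja4 fell by 1.01 on normal diet. Of 21 immediate early genes 10 had that order, beside the same 17.9%, with a median of -0.35. Of the 23 that could be read 13 fell and 0 rose on normal diet, beside 6.65% and 3.89% of all genes. On high-fat diet 4 fell and 1, Ier5, rose, beside 4.36% and 7.34%. The median was -0.62 on normal diet but -0.14 on high-fat diet. For high-fat minus normal diet it was -0.33 in wild type and 0.09 in the knockout, beside 0.03 and -0.05 for the members. Egr1 fell by 2.31 and 1.76, and Gadd45b, Fos, Btg2 and Junb fell on normal diet by 1.89, 1.58, 1.43 and 1.24, while Nr4a2 fell by 1.20 on high-fat diet.

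Some feeding and clock genes differed between the genotypes, and their part was likewise not tested. Of 21 feeding and fasting genes 6 had both knockout arrays below both wild-type arrays and 2 above, beside 17.9% and 13.8% of all genes. On normal diet 3 of 22 fell and 1 rose, beside 6.65% and 3.89% of all genes, with 11 negative and 11 positive. On high-fat diet 7 fell and 4 rose, beside 4.36% and 7.34%, with a median of -0.33. Igfbp1, which insulin represses, fell by 2.42 and 1.16, and Irs2 fell by 0.91 and 0.70. On high-fat diet Lpin1 and Tat fell by 1.13 and 1.07 and Pnpla3 rose at least 2.84-fold. Of 16 circadian genes 3 had both knockout arrays below both wild-type arrays, a share near that of all genes, and their median was 0.27 on normal diet and -0.31 on high-fat diet. Ciart rose by 1.37 on normal diet and fell by 1.11 on high-fat diet, and Nfil3 fell by 1.06 on normal diet. The sources used here do not state the hour at which the livers were taken.

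Markers of cell types were read beside the members, as the sum of linear signals scaled to the 75th percentile. The 14 hepatocyte genes summed to 5357, 5037, 5101 and 4278. Of the 14, 8 had both knockout arrays below both wild-type arrays, beside 17.9% of all genes. Under median scaling 2 of the 14 had that order, beside 10.4%. The 11 plasma cell and B cell genes on the array summed to 6.54, 5.25, 6.70 and 4.82, with Irf4 and Tnfrsf17 below background on every array. The 15 pancreatic acinar genes summed to 6.54, 7.20, 6.75 and 5.88, with 8 of them, among which Cpb1, Pnlip and Prss1, below background on every array. The 16 Kupffer cell and macrophage genes summed to 52.4, 63.7, 44.7 and 114, highest in the knockout on high-fat diet. There 14 of them rose against wild type, beside 7.34% of all genes. That array was the lowest for 7 of the 10 members. The members' median diet difference in the knockout was -0.05, beside -0.07 over all genes. It lay within the scanner error of 0.20 and changed sign between normalizations. Of other types, the 11 stellate and fibroblast genes summed to 56.4, 62.8, 48.9 and 74.7. On high-fat diet 6 of them were higher in the knockout by 1.5-fold, beside 7.34% of all genes. The 8 cholangiocyte genes summed to 1.31, 0.88, 0.77 and 1.96, with Epcam below background on every array. Of these, 4 were lower by 1.5-fold in the knockout on normal diet, beside 6.65% of all genes. On high-fat diet 2 were higher, beside 7.34%. The 10 endothelial genes summed to between 35.99 and 39.8. The part of all these cells in the members' values was not tested.

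The genes whose profile lay nearest to the mean profile of the members were found by the root mean square distance of centred log2 signals over the 4 arrays, among 13541 genes. The members' mean profile was 0.31, 0.34, -0.32 and -0.33. Nearest were Rasgef1b, Bag3, Atp2a2, Neb and Vmn1r217, at distances of 0.04, 0.04, 0.05, 0.05 and 0.05. Bag3 is a cochaperone of cytosolic Hsp70 and Atp2a2 encodes SERCA2, the pump that fills the endoplasmic reticulum with calcium. Atp2a2 read 1.06, 1.03, 0.38 and 0.29, so it fell in the knockout by 0.68 on normal diet and by 0.74 on high-fat diet. Among the members, Manf lay closest to their mean profile, at 0.05, and Creld2, whose values also differed with diet, lay at 0.33. Over 4 arrays many profiles are alike, so nearness is a description.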

How the data were processed

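Liver RNA of 4 groups was read on 1 array each. The authors' deposited scanner files come from Feature Extraction 11.5.1.1 and hold, per the file headers, the intensity of each spot, with a processed signal from which background was subtracted. GeneSpring GX 7.3 is named in the submitters' processing notes. The deposited value table, also intensity, lay within 1% of the processed signal for 99.7% of probes on every array, is linear and uncentred, and has column medians of 79.9, 75.9, 72.4 and 89.2. All 4 arrays shared 1 slide and 1 scan, and 0 spots were saturated.

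Control spots were left out, as were outlier-flagged spots unless every spot of a probe was flagged. Spots were averaged as log2 of the deposited signal, and the 75th percentile over 39429 probes was subtracted per array. Accessions named 27508 probes through a RefSeq gene table of GRCm38.p6, and 11921 stayed unnamed. A gene is its brightest probe. Differences of 2 arrays carry the scanner's error, with no test. A probe well above background on 1 array of a pair was set against a bound. The members and the gene lists were chosen with earlier results of these data known. Genes were named by a rule: all members, then of each list the genes past 2-fold or else the 2 largest differences in a comparison, the 5 nearest profiles, and Cat. A few list genes of known role (Calr, Sdf2, Creld1, Ern1, Atf6, Atf4, Eif2ak3, Irs2, Sel1l, Syvn1, Txndc11) were named after their values were seen. One gene that the rule names is not reported here.

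Limma 3.58.1 in R 4.3.3 gave the alternative normalizations, and the rest ran in Python 3.11.15 with numpy 2.4.6, pandas 2.3.3 and matplotlib 3.10.9. Alternatives changed the scaling, background correction, probe choice, flagged spots, filter and size rule.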

Additional observations from a re-analysis of the deposited data

Results flagged for a closer look

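In 5 members the diet difference had opposite signs in the genotypes, and none of these differences was tested. The share of all genes with opposite signs is not given here. The diet difference in the knockout minus that in wild type was -0.59 for Herpud1, -0.40 for Hspa5, -0.19 for Pdia4, -0.078 for Dnajb9 and 0.26 for Xbp1. The values of Pdia4, Dnajb9 and Xbp1 lay within the scanner error over 4 arrays, 0.29 for each. Herpud1 and Pdia4 kept opposite signs under every alternative that was run. For Herpud1 the values were 0.22 in wild type and -0.37 in the knockout, and -0.14 in the knockout under quantile normalization. For Hspa5 the knockout value was -0.05 and became 0.19 under quantile normalization. For Dnajb9 both values lay within 0.10 of 0 except under median scaling, where they were 0.10 and -0.18. For Xbp1 the knockout value of 0.02 became -0.09 under median scaling.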

How the results depend on the processing

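Under 8 alternatives, all 160 genotype differences of the members stayed negative, and the 10 members kept both knockout arrays below both wild-type arrays under each. The share of all genes in that order ran from 10.4% to 18.7%. The members' median ran from -0.62 to -0.48 on normal diet and from -0.75 to -0.61 on high-fat diet. On normal diet 5 members were past 1.5-fold, against 4 under quantile normalization, 3 under median scaling and 1 under a 2-fold rule. On high-fat diet 6 were past it, against 2 under a 2-fold rule. For diet in the knockout 0 became 1 (Creld2) under quantile and under cyclic loess normalization. The diet median ran from 0.0035 to 0.13 in wild type, and changed sign in the knockout (-0.15 to 0.13), as did the difference of diet effects (-0.18 to 0.13). Median scaling set the median of all genes at 0.13 on normal diet and -0.10 on high-fat diet for knockout minus wild type, so each member's difference is read against it. The cause was not tested. Normexp used the median spot signal, the one in the files, chosen after seeing the data. No paired analysis was possible because each group has 1 array. For the same reason no replicate could be left out, and with 1 slide no slide block could be fitted. Signal did not limit the members, since each was well above background on every array, with Hyou1 the one member below the 75th percentile on all arrays.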

Other observations

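Outside the members, diet differences reached 2-fold in some genes of the same pathway. In wild type on high-fat diet, Asns, the asparagine synthetase and an ATF4 target, fell by 2.44 on the log2 scale. In the knockout it was Atf3 and Nupr1 that rose with the diet, by 2.26 and 1.38, and Tor3a, of the folding list, rose by 1.096. Among the sensors, Ern1 fell in wild type by 0.72 and differed in the knockout by -0.47, Ern2 rose in wild type by 0.72, and Creb3l1 differed in the knockout by 0.32. Fkbp11 and Nucb2 fell in wild type by 0.92 and 0.90. The degradation lectin Os9 differed in the knockout by -0.39. Of the translocon genes, Ssr4 and Tram1 differed in wild type by -0.41 and -0.40, and in the knockout Sec61a2 rose by 0.68 and Kdelr3 at least 1.88-fold.

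Genes outside the pathway also differed with diet. In wild type Dnaja4 fell and Dnajb2 rose, each by 0.62, and Junb, Ier2, Gadd45b, Egr1 and Nr4a1 fell by 1.34, 1.07, 1.04, 1.03 and 1.01 while Gadd45a rose by 1.17. In the knockout Klf6 rose by 1.08, and Hspa1l, Egr2 and Ier3 rose at least 7.01-fold, 3.93-fold and 2.47-fold. Fgf21, a liver hormone, rose in both genotypes, by 2.13 and 2.67, Igfbp1 fell by 1.00 in wild type, and Pdk4 rose by 1.16 in the knockout. The clock gene Nr1d1 fell in both genotypes, by 1.14 and 1.38, and Ciart rose by 1.61 in wild type. Among the genes with an ERSE or ERSE-II, Acnat2 rose in wild type by 1.29, and in the knockout Xlr3b rose by 2.01 and Xlr3a at least 3.49-fold. On normal diet Xlr3a fell at least 3.19-fold in the knockout against wild type.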
